A study of Mus musculus with 8 samples.

Results

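Collagen genes were examined in RNA-seq of N33, a mouse embryonic stem cell (ESC) line of C57BL/6 origin (C57BL/6J in the study's methods), in 4 culture conditions with 2 replicates each. The members were all genes whose symbol has the form of a collagen alpha chain (Col, a type number, a and a chain number), and 44 of the 20278 genes in the files met this rule. Cells without feeders were grown in serum on gelatin (−F). Cells with feeders were grown in serum on mouse embryonic fibroblasts (MEFs) whose division had been stopped with mitomycin C (F), or in the same way with the 2i inhibitors added (F2i). The last condition was N2B27 with 2i on a coating of poly-L-ornithine and laminin, with neither serum nor feeders (NB2i). All media held LIF at 1000 U/ml, and the 3 serum conditions held 20% fetal bovine serum. For NB2i the inhibitors were CHIR99021 at 3 µM, which acts on GSK3, and PD0325901 at 1 µM, which acts on MEK. Their dose in F2i was not given in the sources used here. Feeders are fibroblasts, and the protocol states that ESCs were freed of them by differing adherence before RNA was taken. In the study's methods this step stands under quantitative PCR, and the section on RNA sequencing does not mention it. All samples derive from this 1 line.

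Collagens are extracellular proteins of 3 chains wound into a triple helix. Fibrillar collagens (types I, II, III, V, XI, XXIV and XXVII) build the fibrils of connective tissue, and fibroblasts are a main source of types I, III and V. Type IV collagen forms the network of basement membranes and is made by many epithelial cells and by the early embryo. Other classes link or decorate these structures, such as the beaded filaments of type VI, the fibril-associated types IX, XII, XIV and XVI, and type XVIII, a proteoglycan of basement membranes whose C-terminal fragment is endostatin. Here the 44 genes were 11 fibrillar genes, 6 type IV genes and 27 genes of other classes, with Col18a1 counted among the last.

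Expected counts summed to between 20129641 and 20664488 per sample, so that depth was nearly equal. FPKM, the reads of a gene scaled by transcript length and sample depth, is used below for levels, and fold changes are from edgeR on counts. A gene was called higher or lower when its Benjamini-Hochberg adjusted p was under 0.05 and its fold change at least 2. Of the 44 collagen genes, 36 had at least 10 counts in at least 2 samples and were tested. Among these 36, Col3a1, Col4a6, Col15a1 and Col24a1 met this minimum only through the samples grown on feeders. The 8 others, Col4a3, Col4a4, Col6a4, Col6a6, Col9a1, Col10a1, Col19a1 and Col28a1, had too few reads in any condition. The labels name no batch, and the study's design text calls the replicates biological duplicates. A test of 2 samples against 2 by permutation cannot go below p = 0.3333, so the adjusted p-values rest on the model's spread across genes.

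At a limit of 1 FPKM in both replicates, collagen genes fell into 3 groups. Expression without feeders, in −F or in NB2i, was found for 10 genes: Col1a1, Col2a1, Col4a1, Col4a2, Col5a1, Col5a3, Col9a2, Col9a3, Col18a1 and Col26a1. A further 13 genes reached the limit only with feeders, in F or F2i: Col1a2, Col3a1, Col4a5, Col5a2, Col6a1, Col6a2, Col6a3, Col7a1, Col8a1, Col11a1, Col12a1, Col13a1 and Col16a1. The remaining 21 genes stayed under it in every condition. Among fibrillar genes the split was 4, 4 and 3, among type IV genes 2, 1 and 3, and among the other classes 4, 8 and 15. The grouping uses the measured levels and describes them, so that it is not evidence of a difference. The gene just inside was Col5a3, with 1.18 and 1.41 FPKM in −F. Just outside were Col7a1 with 0.88 and 1.04 FPKM in −F, Col1a2 with 0.84 and 0.72 FPKM and Col13a1 with 0.74 and 0.69 FPKM, all in −F.

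**Figure D1:**
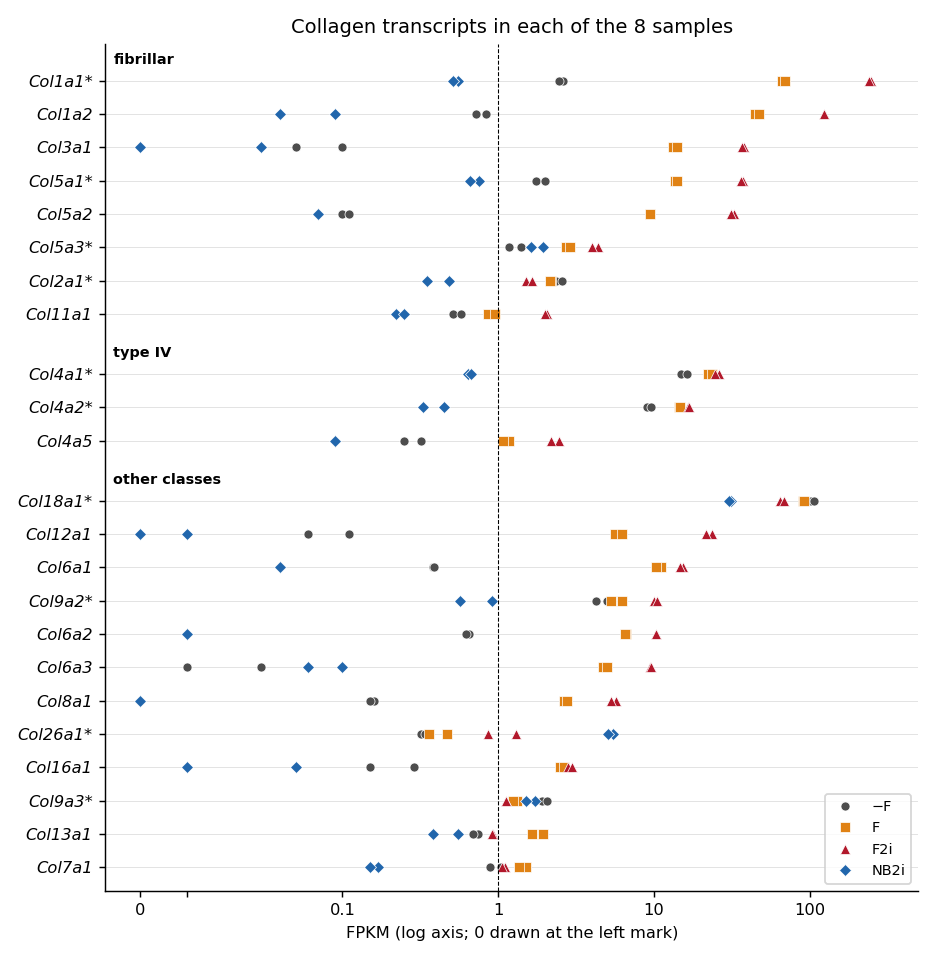
FPKM (log axis, 0 drawn at the left mark) of the 23 collagen genes that reached 1 FPKM (dashed line) in both replicates of a condition, with 1 symbol per sample and a colour per condition. Genes with an asterisk reached 1 FPKM without feeders. Col18a1 stays above 30 FPKM in all 8 samples, whereas Col3a1 spans from 0 in an NB2i sample to 37.63 in an F2i sample.

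Feeders were compared with no feeders in the same serum medium (F against −F). Fibrillar collagens of connective tissue were far higher with feeders, and so were type VI and type XII collagen, whereas Col4a1, Col4a2 and Col18a1 differed by less than 2-fold. Across all classes, 18 collagen genes were called higher and 0 lower, where 5.59% of all tested genes were called higher and 1.65% lower. Of the 18, the fibrillar Col3a1 and Col24a1 and also Col15a1 met the count minimum only through the samples on feeders. A call of lower was hardly open to these. The median log2 fold change was 0.95 over the 36 collagen genes tested and 0 over all genes. By class, 7 of 11 fibrillar genes, 1 of 4 tested type IV genes and 10 of 21 tested genes of other classes were called higher.

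Fibroblast markers moved with these calls. Of 18 markers, 15 reached 1 FPKM in both F samples and 6 in both −F samples, and 13 of 17 tested were called higher in F against −F (5.59% of all genes). Their summed level was 40.04 FPKM in −F, 242.625 in F, 354.93 in F2i and 64.77 in NB2i (means of 2). Vcam1 and Dpt were at 0 in both −F samples, and Postn, Fap, S100a4, Vcam1 and Tcf21 were at 0 in both NB2i samples. Of the markers called higher, Vcam1, Dpt, Postn, Fap and S100a4 met the count minimum only through the samples on feeders. A call of lower was hardly open to these. Thy1, a surface protein of fibroblasts, was at 4.45 and 4.51 FPKM in −F and 33.73 and 33.66 FPKM in F. Pdgfrb was at 0.17 and 0.18 FPKM in −F and 1.81 and 1.78 FPKM in F, and the mesenchymal factors Prrx1 and Twist2 were also called higher in F. In RNA of whole cultures, fewer cells of a type and less RNA per cell cannot be told apart, and transcripts of remaining feeders cannot be told apart from those of ESCs. The part of fibroblasts in the collagen levels was not tested. All 7 pluripotency markers, Pou5f1 and Nanog among them, were at 1 FPKM or more in every condition.

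The genes of type I collagen, the main fibril of skin, bone and tendon, had the highest levels of the fibrillar genes in F. Col1a1 (chr11:94936224-94953042, mm10, plus strand) was at 2.59 and 2.47 FPKM in −F and at 66.03 and 69.63 FPKM in F. Every F sample was above every −F sample, a 27.2-fold difference (log2 fold change 4.77 ± 0.06 SE, adjusted p = 7.87e-24, edgeR, n = 2 each). Col1a2, its partner chain, was at 0.84 and 0.72 FPKM in −F and at 44.70 and 47.46 FPKM in F, which is 59.7-fold higher. Thus Col1a1 was above 1 FPKM without feeders and Col1a2 was just below it.

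Col3a1, the single chain of type III collagen, was nearly silent without feeders. Its level was 0.10 and 0.05 FPKM in −F and 13.20 and 14.10 FPKM in F, and the log2 fold change was 7.53 ± 0.14 (SE). Type V collagen, which joins type I in fibrils and limits their width, was measured through 3 chains. Col5a2 had 0.10 and 0.11 FPKM in −F and 9.51 and 9.49 FPKM in F, a rise of 6.50 ± 0.11 (log2, SE). Col5a1 was already at 1.74 and 2.00 FPKM in −F and was at 13.73 and 14.05 FPKM in F, a smaller rise of 2.92 ± 0.06 (log2, SE). Col5a3 rose least, from 1.18 and 1.41 FPKM to 2.72 and 2.91 FPKM, a 2.21-fold difference. The fibrillar chains of cartilage differed from these. Col2a1, the chain of type II collagen, was at 2.36 and 2.56 FPKM in −F and 2.20 and 2.15 FPKM in F and was not called (log2 fold change −0.16 ± 0.10 SE, adjusted p = 0.243). Col11a1, of type XI, passed the adjusted p but stayed under 2-fold, at 0.51 and 0.58 FPKM in −F and 0.86 and 0.95 FPKM in F. Col24a1 was the remaining fibrillar gene called, at a level under 1 FPKM.

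For 4 of the fibrillar and type VI genes that rose together in F, the bases before the start site are shown as examples. No annotated exon overlaps these stretches, but this also holds for Col24a1 and for a window of Col6a2, which are not shown. The stretches shown are the 250 bases before the RefSeq start (GRCm38.p6, the assembly behind mm10) and read in the direction of the gene. Col3a1 is at chr1:45311288-45311537 on the plus strand, Col5a1 at chr2:27886175-27886424 on the plus strand, Col5a3 at chr9:20815068-20815317 on the minus strand and Col6a3 at chr1:90843972-90844221 on the minus strand. Capitals mark the letters of the CCAAT box, of the GC box (GGGCGG) and of the TATA box (TATAAA), at any position and on both strands. No marked motif overlaps another in these stretches.
Col3a1: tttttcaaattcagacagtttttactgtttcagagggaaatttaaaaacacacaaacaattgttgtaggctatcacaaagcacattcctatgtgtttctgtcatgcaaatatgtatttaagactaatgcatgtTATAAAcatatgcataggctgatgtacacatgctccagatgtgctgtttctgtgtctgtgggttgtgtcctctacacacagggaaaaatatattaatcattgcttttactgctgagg
Col5a1: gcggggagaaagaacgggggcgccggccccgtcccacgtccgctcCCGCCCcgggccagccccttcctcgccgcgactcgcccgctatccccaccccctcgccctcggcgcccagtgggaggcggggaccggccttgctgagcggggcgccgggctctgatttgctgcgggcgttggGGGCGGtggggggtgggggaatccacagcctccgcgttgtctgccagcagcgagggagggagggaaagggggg
Col5a3: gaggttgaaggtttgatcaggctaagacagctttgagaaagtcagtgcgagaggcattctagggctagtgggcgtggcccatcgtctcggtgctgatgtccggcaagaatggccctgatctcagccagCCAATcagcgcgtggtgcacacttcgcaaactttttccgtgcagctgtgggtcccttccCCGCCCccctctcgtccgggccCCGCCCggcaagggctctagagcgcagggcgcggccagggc
Col6a3: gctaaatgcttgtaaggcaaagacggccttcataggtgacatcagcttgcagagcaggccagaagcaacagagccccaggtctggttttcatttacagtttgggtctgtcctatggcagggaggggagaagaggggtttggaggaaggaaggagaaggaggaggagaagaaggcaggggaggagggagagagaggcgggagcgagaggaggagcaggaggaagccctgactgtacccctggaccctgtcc
The stretches differ in base composition. That of Col3a1 has 35.2% G and C and 0 CpG dinucleotides, and it holds TATAAA, which begins 117 bases before the start. That of Col5a1, which was above 1 FPKM without feeders, has 76.4% G and C with 28 CpG and holds GGGCGG on each strand. Col5a3 has 62.8% G and C with 17 CpG, 1 CCAAT and 2 GGGCGG. Col6a3 has 57.2% G and C with 3 CpG and none of the motifs. Windows were given for 35 of the 44 collagen genes, 38 windows in all. GGGCGG was in 57.89% of these 38 and in 32.74% of the 32851 windows of all genes, CCAAT in 34.21% and 33.85%, and TATAAA in 13.16% and 12.37%. These matches describe letters only and are not evidence of binding.

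Type IV collagen behaved differently from the fibrillar genes. Col4a1 and Col4a2 encode the chains found in nearly all basement membranes, and both were well expressed in −F. Col4a1 was at 14.94 and 16.22 FPKM in −F and 22.26 and 23.48 FPKM in F, and Col4a2 was at 9.02 and 9.55 FPKM in −F and 14.55 and 14.67 FPKM in F. The groups did not overlap, but the differences were 1.49-fold and 1.60-fold and were not called. Both genes lie head to head on chromosome 8, Col4a1 at chr8:11198423-11312826 on the minus strand and Col4a2 at chr8:11312805-11449287 on the plus strand, and their annotated ends overlap by 22 bases. Whether counting used strand is not given in the sources used here. Col4a5, an X-linked chain of kidney, lung and other basement membranes, was called higher, from 0.32 and 0.25 FPKM in −F to 1.18 and 1.08 FPKM in F (log2 fold change 2.01 ± 0.16 SE). Its neighbour Col4a6, with 1308 bases between them on the X chromosome, was not called in this comparison, and Col4a3 and Col4a4 were not tested.

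Col18a1 was the most abundant collagen transcript in −F. It was at 102.67 and 107.31 FPKM in −F and at 91.37 and 91.97 FPKM in F. The groups did not overlap, and the difference was 1.13-fold, in the opposite direction to most collagen genes (log2 fold change −0.17 ± 0.04 SE, adjusted p = 0.00283, edgeR). Col9a3, a chain of type IX collagen, was likewise lower in F by less than 2-fold, at 1.91 and 2.07 FPKM in −F and 1.32 and 1.24 FPKM in F. Its partner Col9a2 was at 4.98 and 4.28 FPKM in −F and 5.28 and 6.21 FPKM in F, a difference of 1.26-fold in the other direction.

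Type VI collagen, a microfibrillar collagen found around most cells, was raised in all 3 of its common chains. Col6a3 had 0.01 and 0.03 FPKM in −F and 4.74 and 4.99 FPKM in F, and its log2 fold change of 7.86 ± 0.17 (SE) was the largest of the 23 genes. Col6a1 was at 0.38 and 0.39 FPKM in −F and 11.10 and 10.27 FPKM in F, a 28.2-fold rise. Col6a2 was at 0.65 and 0.62 FPKM in −F and 6.61 and 6.50 FPKM in F, a 10.4-fold rise. No F sample overlapped a −F sample for any of the 3 chains, which is a weak criterion with 2 samples a group. The share of all genes without overlap was not counted. Col12a1, which coats type I fibrils, rose from 0.06 and 0.11 FPKM to 5.66 and 6.21 FPKM (71.1-fold). Col8a1, a short-chain collagen of vessel and corneal membranes, rose from 0.16 and 0.15 FPKM to 2.64 and 2.78 FPKM (17.5-fold). Col16a1, another fibril-associated collagen, rose 11.9-fold, with 0.15 and 0.29 FPKM in −F and 2.49 and 2.64 FPKM in F. The transmembrane collagen Col13a1 rose 2.59-fold, from 0.74 and 0.69 FPKM to 1.94 and 1.66 FPKM. Col7a1, which forms the anchoring fibrils under epithelia, was at 0.88 and 1.04 FPKM in −F and 1.52 and 1.37 FPKM in F and stayed under 2-fold. Col26a1 was not called, at 0.32 and 0.34 FPKM in −F and 0.47 and 0.36 FPKM in F.

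Among the 21 genes under 1 FPKM, the highest value over the 8 samples ranged from 0.01 to 0.9 FPKM with a median of 0.13, and 8 of them never reached 0.1. The 5 nearest the limit were Col6a5, Col14a1, Col15a1, Col17a1 and Col27a1. Col15a1, the relative of Col18a1, was listed at 0 in both −F samples and at 0.84 and 0.90 FPKM in F. With 192 counts in F against none, it was at least 64.1-fold higher, taking a floor of 3 counts over the −F samples together. Col14a1, Col20a1 and Col24a1 were the other genes of this group called higher in F.

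**Figure D2:**
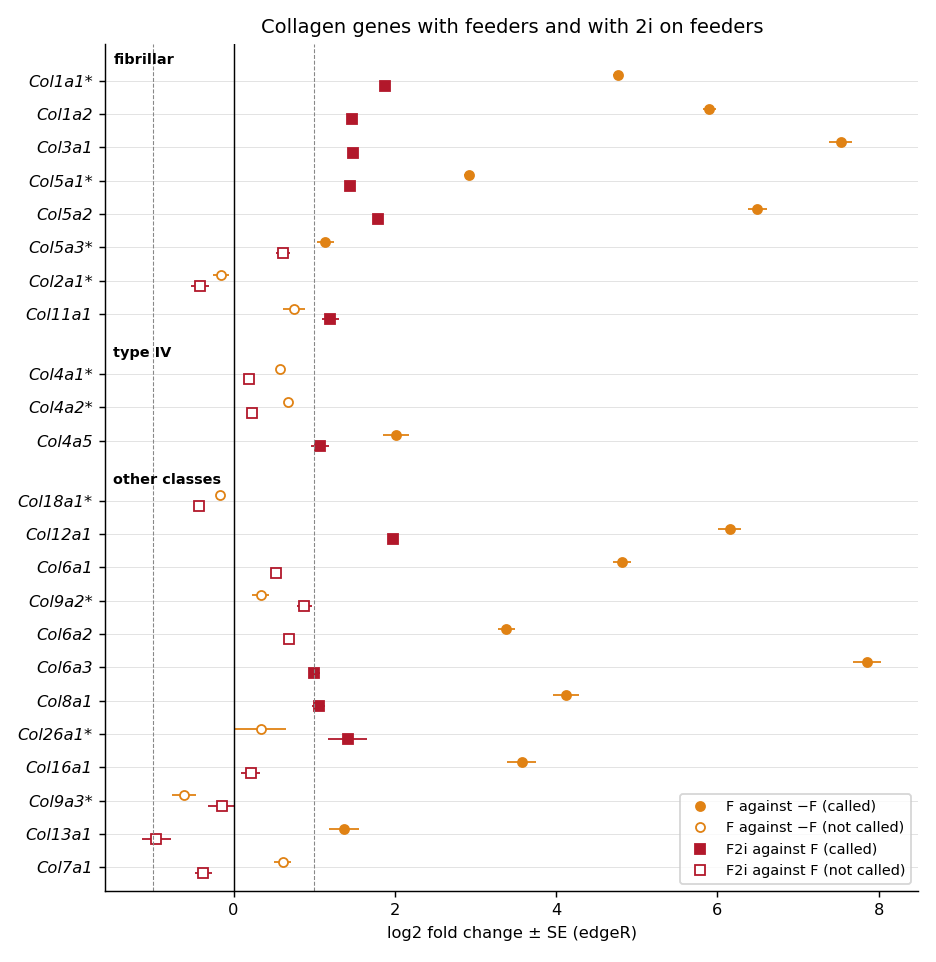
log2 fold changes (± SE, edgeR, 2 samples a group) of the 23 collagen genes for F against −F (circles) and F2i against F (squares), both of which use the F samples. Filled symbols were called and dashed lines mark a 2-fold change. Col1a1, Col1a2, Col3a1, Col5a1 and Col5a2 lie right of both lines in each comparison, whereas Col4a1, Col4a2 and Col18a1 lie within them.

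Primitive endoderm, an early lineage that lays down type IV collagen, was also looked at. Of its 13 tested markers 8 were called higher in F against −F (5.59% of all genes), and 7 were called lower in F2i against F (7.00% of all genes). Both counts hold Pdgfra, which is also among the fibroblast markers. Gata4 was at 2.11 and 1.31 FPKM in −F and 3.02 and 3.45 FPKM in F without being called, Gata6 rose from 0.70 and 0.50 FPKM to 1.98 and 1.83 FPKM, and Sox17 was at most at 0.34 FPKM. In NB2i against −F, 4 of the 13 were called higher and 5 lower (11.1% and 16.1% of all genes). The 15 markers summed to 119 FPKM in −F, 138 in F, 137 in F2i and 176 in NB2i, most of it from Lamb1 and Lamc1. The part of primitive endoderm in the collagen levels was not tested. The 8 endothelial markers summed to 13.7 FPKM in −F, 15.0 in F, 30.5 in F2i and 31.6 in NB2i. Of 7 tested, 4 were called higher and 1, Kdr, lower in F2i against F (6.44% and 7.00% of all genes). In F against −F, 3 were called higher and 1, Cdh5, lower (5.59% and 1.65% of all genes). Eng, Vwf and Tek made up most of the summed level, while Cdh5, which defines endothelium, was at most at 0.28 FPKM. The 8 macrophage markers summed to 6.53, 10.6, 10.9 and 18.5 FPKM in the same order, most of it from Cd68, while Ptprc, the marker of blood cells, was at most at 0.08 FPKM. Of 5 tested, Adgre1 and Cd14 were called higher and Csf1r lower in F against −F (5.59% and 1.65% of all genes). Adgre1 and Cd14 were called lower in F2i against F (7.00% of all genes). These 3 genes were under 1 FPKM in every sample. The 6 cartilage markers summed to 5.20 FPKM in −F, 5.24 in F, 3.34 in F2i and 0.955 in NB2i. Of the 5 tested, Sox9 was called higher in F against −F (5.59% of all genes), with a list median of −0.37 (log2). Matn3 and Comp were called lower in F2i against F (7.00% of all genes). Acan was between 1.27 and 1.74 FPKM in the serum conditions. The part of these 3 lists in the collagen levels was not tested.

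F2i was compared with F to ask what the inhibitors did on feeders in serum. Of the 11 fibrillar genes 6 rose, as did Col12a1, while Col4a1 and Col4a2 differed by less than 2-fold and so did Col18a1, which was lower. In all, 11 collagen genes were called higher and 3 lower, where 6.44% of all tested genes were called higher and 7.00% lower. The share called lower, 3 of 36, was thus near that of all genes. The median log2 fold change of the collagen genes was 0.50, against −0.003 for all genes.

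Col1a1 reached 247.81 and 239.34 FPKM in F2i, the highest level of any collagen gene in these data. It was 3.69-fold above F (log2 fold change 1.88 ± 0.04 SE, adjusted p = 3.88e-19, edgeR), and the groups did not overlap. Col1a2 was at 124.11 and 123.76 FPKM in F2i (2.76-fold higher than F), Col3a1 at 37.63 and 36.89 FPKM (2.80-fold) and Col5a2 at 32.84 and 31.10 FPKM (3.46-fold). Col5a1 was at 37.24 and 36.50 FPKM in F2i, 2.73-fold higher. Thus the major chains of types I, III and V rose by between 2.73-fold and 3.69-fold. Col11a1 rose to 2.05 and 1.99 FPKM (2.30-fold). Col5a3, with 4.35 and 4.01 FPKM, was higher by less than 2-fold, and Col2a1, with 1.5 and 1.66 FPKM, was lower by less than 2-fold.

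Among the other classes Col12a1 rose to 23.75 and 21.71 FPKM in F2i (3.93-fold higher than F). Col8a1 was at 5.68 and 5.29 FPKM in F2i (2.08-fold) and Col4a5 at 2.45 and 2.19 FPKM (2.10-fold). Col6a3, at 9.38 and 9.52 FPKM in F2i, was at the edge of the call with a 2.01-fold rise. Without F2i replicate 1 the log2 fold change of Col4a5 was 0.99, and that of Col6a3 was 0.99 without F2i replicate 2 and 0.96 without F replicate 1, so that neither was then called. The other chains of type VI were higher by less than 2-fold. Col6a1 was at 15.37 and 14.65 FPKM in F2i and Col6a2 at 10.33 and 10.27 FPKM. Col16a1 was at 2.81 and 2.97 FPKM and did not pass the test (adjusted p = 0.12, edgeR). Col26a1 rose 2.67-fold to 0.86 and 1.30 FPKM.

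The major type IV chains differed little with the inhibitors. Col4a1 was at 26.05 and 24.62 FPKM in F2i and Col4a2 at 16.65 and 16.77 FPKM, differences from F of 1.14-fold and 1.17-fold. Col18a1 was at 64.17 and 68.50 FPKM, 1.35-fold below F (log2 fold change −0.43 ± 0.04 SE). Col9a2 was at 10.04 and 10.52 FPKM in F2i, 1.84-fold above F, and Col9a3 was at 1.13 and 1.12 FPKM and did not pass the test. Col9a2 was called when F replicate 2 was left out (log2 fold change 1.01). Col13a1, which had risen with feeders, was at 0.92 and 0.91 FPKM in F2i, 1.94-fold below F, and was called lower only when F replicate 2 was left out (−1.06). Col7a1 was at 1.11 and 1.06 FPKM.

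The 3 genes called lower were under 1 FPKM. Col6a5, a chain of type VI found in skin and lung, fell from 0.88 and 0.59 FPKM in F to 0.02 and 0.02 FPKM in F2i (37.8-fold lower). Col15a1 fell from 0.84 and 0.90 FPKM to 0.10 and 0.19 FPKM, and Col8a2 also fell. Fibroblast markers were also looked at in F2i against F. Of 17 tested, 3 were called higher (Postn, Fbn1 and Dpt) and 1 lower (Pdgfra), where 6.44% of all genes were called higher and 7.00% lower. A further 7 were higher past the adjusted p but under 2-fold, as were 3194 of all 15287 genes tested. The median log2 fold change of the fibroblast markers was 0.45, against 0.50 for all tested collagen genes. By class, the collagen median was 1.20 for fibrillar genes, 0.65 for type IV genes and 0.46 for the other classes. The summed level of these markers was 242.625 FPKM in F and 354.93 FPKM in F2i, and their part in the collagen levels was not tested.

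NB2i and −F both lack feeders, but they differ in serum, basal medium, coating and inhibitors at once, and the effects of these cannot be told apart. In NB2i every collagen gene was under 1 FPKM except Col18a1, Col26a1, Col5a3 and Col9a3. Of the tested collagen genes, 23 were called lower in NB2i and 4 higher, where 16.1% of all tested genes were called lower and 11.1% higher. The median log2 fold change was −2.16 over the collagen genes and 0.01 over all genes. Of 17 tested fibroblast markers, 8 were called lower and 2 higher (16.1% and 11.1% of all genes). Their summed level went the other way, from 40.04 FPKM in −F to 64.77 FPKM in NB2i (means of 2). Vim, at 17.9 FPKM in −F and 59.28 FPKM in NB2i, held most of that sum in NB2i. The part of these markers in the collagen levels was not tested.

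Type IV collagen, abundant in −F, was far lower in NB2i. Col4a1 fell to 0.64 and 0.67 FPKM in NB2i, 22.6-fold below −F (log2 fold change −4.50 ± 0.08 SE, adjusted p = 3.79e-21, edgeR). Col4a2 fell 22.5-fold to 0.45 and 0.33 FPKM. Thus both chains of the common type IV network went from above 9 FPKM to under 1 FPKM. Col4a5 was at 0.09 and 0.09 FPKM in NB2i, also called lower. Col18a1 fell 3.25-fold, to 31.22 and 30.41 FPKM, and was still the highest collagen transcript there.

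The fibrillar genes that were expressed without feeders were lower as well, except for Col5a3. Col1a1 was at 0.55 and 0.51 FPKM in NB2i (4.56-fold lower than −F), Col5a1 at 0.75 and 0.66 FPKM (2.54-fold lower) and Col2a1 at 0.35 and 0.48 FPKM (5.76-fold lower). Col5a3 was at 1.93 and 1.62 FPKM in NB2i, 1.43-fold higher. Col1a2 fell to 0.09 and 0.04 FPKM, and Col11a1 to 0.22 and 0.25 FPKM. Col5a2 was at 0.07 and 0.07 FPKM and did not pass the test. Col3a1 had 3 counts over both NB2i samples against 17 over both −F samples, a ratio of 5.71 with a 95% counting interval of 1.65 to 30.4. Its call was lost without NB2i replicate 2 (adjusted p = 0.106, edgeR) or without −F replicate 1 (0.0822). Counting intervals cover counting error only.

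In the other classes, Col9a2 fell 5.96-fold to 0.91 and 0.57 FPKM, whereas Col9a3 was at 1.73 and 1.51 FPKM and did not pass the test. Col7a1 fell to 0.17 and 0.15 FPKM, Col6a1 to 0.04 and 0.04 FPKM and Col16a1 to 0.01 and 0.05 FPKM. Col6a2 had 2 counts in NB2i against 98 in −F, a ratio of 49.4 (95% counting interval 13.3 to 413). Col8a1 had no counts in NB2i and was at least 11.1-fold lower. Col12a1, at 0 and 0.01 FPKM, had 3 counts against 41 (ratio 13.8, interval 4.39 to 69.5). Its transcript is long, so that a single count may go unlisted. Col13a1, at 0.38 and 0.55 FPKM, did not pass the test.

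Col26a1, a collagen first described in testis and ovary, went the other way. It was at 5.47 and 5.06 FPKM in NB2i against 0.32 and 0.34 FPKM in −F, 16.4-fold higher (log2 fold change 4.04 ± 0.19 SE, adjusted p = 2.48e-14, edgeR). Every NB2i sample was above all 6 samples of the other conditions. Of the other genes called higher, Col20a1 was under 1 FPKM, Col6a3 was at 0.06 and 0.10 FPKM, and Col15a1 had 13 counts against none, at least 4.30-fold higher.

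**Figure D3:**
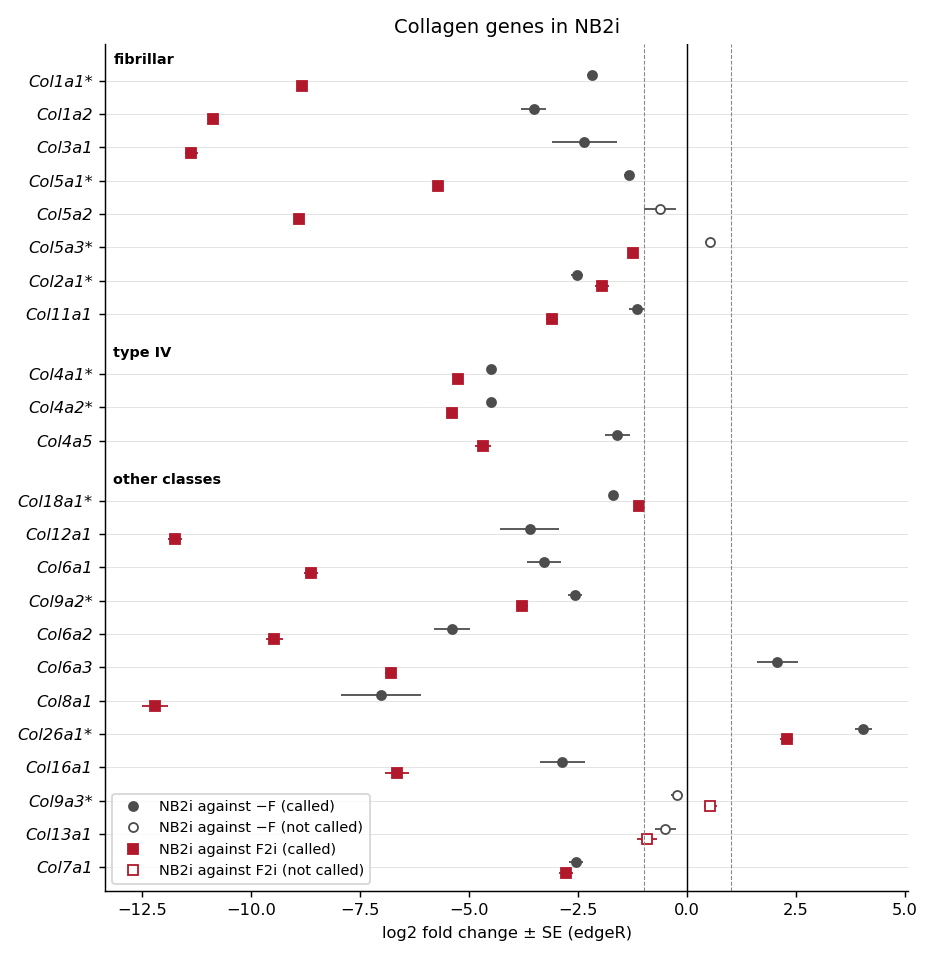
log2 fold changes (± SE, edgeR, 2 samples a group) of the same 23 genes for NB2i against −F (circles) and NB2i against F2i (squares), both of which use the NB2i samples. Filled symbols were called and dashed lines mark a 2-fold change. Only Col26a1 lies right of the 2-fold line in both comparisons. The position of genes with few or no counts in NB2i, such as Col8a1, depends on the prior count of the model.

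NB2i was also compared with F2i, where both media held the inhibitors, and feeders and serum were absent from NB2i only. Here 28 collagen genes were called lower and 1 higher, where 13.3% of all tested genes were called lower and 6.01% higher. The median log2 fold change over the collagen genes was −3.22, or −3.12 with Col8a1 and Col24a1, which had no counts in NB2i, set to their bounds, against 0.02 over all genes. All 11 fibrillar genes and all 4 tested type IV genes were called lower. Among these, Col3a1, Col24a1 and Col4a6 met the count minimum only through the samples on feeders, so that a call of higher was hardly open to them. Feeders, serum, basal medium and coating changed together, and the 2i dose in F2i is not given in the sources used here. All 17 tested fibroblast markers were called lower as well. Of these, Vcam1, Dpt, Postn, Fap and S100a4 met the count minimum only through the samples on feeders, so that higher was hardly open to them. The part of the fibroblast markers was not tested.

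Col1a1 was 458-fold lower in NB2i than in F2i, Col5a2 481-fold and Col5a1 52.2-fold. Col1a2 was 1883-fold lower. Col3a1 had 3 counts against 8488, a ratio of 2880 with an interval of 984 to 14000, and Col12a1 had 3 against 10943, a ratio of 3710 with an interval of 1270 to 18000. The low counts set the width of these intervals. Col8a1, with no counts, was at least 389-fold lower. Other genes fell by smaller factors. Col4a1 was 38.3-fold and Col4a2 42.2-fold lower, Col9a2 13.8-fold, Col2a1 3.87-fold and Col5a3 2.35-fold. Col18a1 was 2.14-fold lower (log2 fold change −1.10 ± 0.05 SE). Col26a1 was the gene called higher, by 4.88-fold, and Col9a3 was higher by less than 2-fold.

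Chains that assemble into the same collagen were compared by the ratio of their FPKM, with 95% counting intervals, in samples where both chains had at least 30 counts. The trimer of type I holds more of the chain of Col1a1 than of Col1a2. The ratio of Col1a1 to Col1a2 was 3.08 (interval 2.44 to 3.89) and 3.43 (2.68 to 4.40) in −F, 1.48 and 1.47 in F, and 2.00 and 1.93 in F2i. The intervals of the 3 conditions did not overlap. Col4a1 and Col4a2 kept a narrow range, with ratios between 1.42 and 2.03 in all 8 samples. Their levels fell together in NB2i, and the wide intervals there (1.03 to 1.97 and 1.42 to 2.90) held the ratios of the other conditions. Col5a1 over Col5a2 was 1.44 and 1.48 in F and 1.13 and 1.17 in F2i. Col6a1 over Col6a2 was 0.585 and 0.629 in −F, 1.68 and 1.58 in F and 1.49 and 1.43 in F2i. Col6a1 and Col6a2 lie on chromosome 10 in the same direction, 85161 bases apart. Col9a2 over Col9a3 varied most, from 2.61 and 2.07 in −F to 4.0 and 5.01 in F, 8.89 and 9.39 in F2i, and 0.526 and 0.377 in NB2i.

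**Figure D4:**
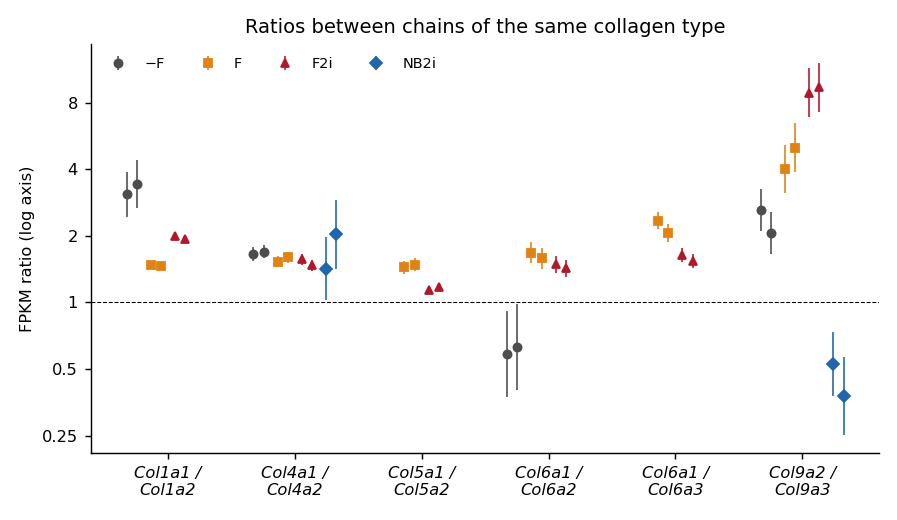
Ratio of FPKM (log axis) between chains of the same collagen type, with 1 symbol per sample and bars for the 95% counting interval. Samples with under 30 counts of a chain are left out. Col4a1 over Col4a2 stays between 1.42 and 2.03 in all samples, whereas Col9a2 over Col9a3 runs from 0.377 in NB2i to 9.39 in F2i.

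Summed over all 44 genes, collagen FPKM was 152.61 ± 4.81 in −F, 335.485 ± 7.02 in F, 675.94 ± 8.26 in F2i and 45.87 ± 1.2 in NB2i (SD, n = 2). The classes took very different shares of this sum. Fibrillar genes made up 6.72% and 6.87% of it in −F, 46.5% and 47.5% in F, 71.6% and 71.1% in F2i, and 9.16% and 8.84% in NB2i. Col18a1 alone made up 68.8% in both −F samples, 27.64% and 27.01% in F, 9.41% and 10.2% in F2i, and 66.8% and 67.5% in NB2i. Type IV genes summed to 25.2 FPKM in −F, 38.7 in F, 44.5 in F2i and 1.16 in NB2i. In NB2i, Col26a1 took the second place, with 11.7% and 11.2% of the sum.

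**Figure D5:**
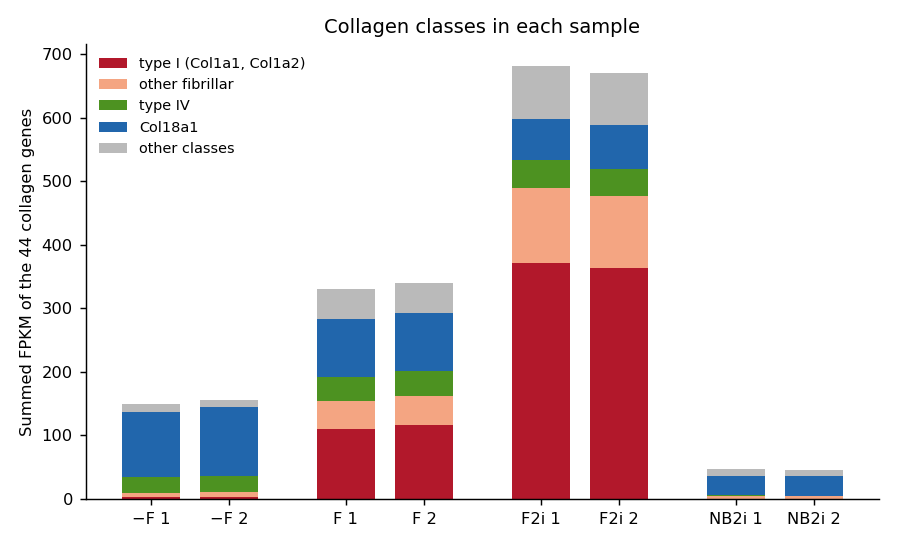
Summed FPKM of the 44 collagen genes in each of the 8 samples, stacked as type I, other fibrillar genes, type IV, Col18a1 and other classes. Type I collagen grows from 3.43 and 3.19 FPKM in −F to 371.92 and 363.1 FPKM in F2i, while Col18a1 is the largest block in −F and NB2i.

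Genes that make, cut, link and bind collagen were followed as 4 lists, chosen for what they are known to do. Of 20 genes for modification and folding of the chains, 2 were called higher in F against −F, P4ha3 and Colgalt2, and none lower. This is near the 5.59% and 1.65% over all genes. Serpinh1, the collagen chaperone Hsp47, was at 56.43 and 50.54 FPKM in −F, 74.13 and 73.51 FPKM in F, 97.96 and 97.15 FPKM in F2i and 49.30 and 48.88 FPKM in NB2i. It passed the adjusted p in F against −F and in F2i against F at 1.40-fold and 1.36-fold. The prolyl hydroxylase genes P4ha1 and P4ha2 and the lysyl hydroxylase genes Plod1, Plod2 and Plod3 stayed under 2-fold in F against −F. P4ha2 and Plod2 were called lower in NB2i against −F, among 5 genes lower and 4 higher in that list, where 16.1% and 11.1% of all genes were called. P4ha2 fell from 5.96 and 6.28 FPKM to 1.16 and 1.15 FPKM. In F2i against F, 1 of the 20 was called higher and none lower, against 6.44% and 7.00% of all genes.

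Of the 12 tested genes for procollagen processing and crosslinking, 7 were called higher in F against −F and none lower, against 5.59% and 1.65% of all genes. Lox, the lysyl oxidase that starts crosslinking, was at 0.28 and 0.20 FPKM in −F, 18.80 and 21.15 FPKM in F, 79.91 and 76.31 FPKM in F2i, and 0.01 and 0 FPKM in NB2i. Its order over the conditions was that of Col1a1. Loxl2 was at 5.50 and 5.30 FPKM in −F, 18.54 and 19.24 FPKM in F, 36.91 and 36.49 FPKM in F2i and 0.49 and 0.44 FPKM in NB2i. Loxl1 and Loxl3 were called higher in F as well. Pcolce, which aids the cut of the C-propeptide, differed from these, with 38.80 and 36.60 FPKM in −F, 45.90 and 45.71 FPKM in F and 90.31 and 89.96 FPKM in NB2i, and it was called higher in NB2i against −F. In that comparison 5 of the 12 were called lower and 2 higher, against 16.1% and 11.1% of all genes. In NB2i against F2i 8 were called lower and none higher, against 13.3% and 6.01% of all genes.

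Of 11 proteins associated with fibrils, 7 were called higher in F against −F and none lower, against the same 5.59% and 1.65%. Of the 7, Dcn, Lum, Fmod and Ogn met the count minimum only through the samples on feeders, so that a call of lower was hardly open to them. Dcn, decorin of the fibril surface, had 290 counts in F against 3 in −F, a ratio of 96.8 (interval 32.8 to 472). Bgn, the related biglycan, rose from 1.85 and 2.13 FPKM to 97.48 and 100.55 FPKM, and Thbs2, a thrombospondin, from 0.20 and 0.12 FPKM to 6.70 and 7.68 FPKM. Fn1 and Sparc were higher in F than in −F by less than 2-fold, and Sparc was called higher in F2i against F. Fn1, fibronectin, was at 98.62 and 95.84 FPKM in −F, 169.71 and 180.03 FPKM in F, 317.83 and 304.51 FPKM in F2i and 357.87 and 334.22 FPKM in NB2i. Sparc, a collagen-binding glycoprotein, was at 99.21 and 95.10 FPKM in −F, 159.62 and 161.45 FPKM in F, 450.01 and 462.53 FPKM in F2i and 456.42 and 456.70 FPKM in NB2i. Both were called higher in NB2i against −F, where most collagen genes were lower.

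Of 7 tested collagen receptors, 4 were called higher in F against −F and none lower, again against 5.59% and 1.65%. Ddr2, a receptor for fibrillar collagen, rose from 0.05 and 0.02 FPKM to 1.80 and 1.99 FPKM, and Itga11, an integrin chain of fibroblasts, from 0.10 and 0.15 FPKM to 1.46 and 1.81 FPKM. Itga1 rose 2.03-fold, and Mrc2, which takes up collagen, was the other gene called. Ddr1, the receptor of epithelial cells, was at 22.82 and 21.91 FPKM in −F, 13.12 and 13.25 FPKM in F and 7.88 and 7.86 FPKM in NB2i, and it was called lower in NB2i against −F. Itgb1, the shared beta chain, stayed between 69.13 and 75.68 FPKM in the serum conditions and was at 32.17 and 31.74 FPKM in NB2i. Itga2 had 21 counts in F and 1 in −F and was not tested.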

How the data were processed

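Poly-A RNA of 8 samples was sequenced as single-end reads on a BGISEQ-500 by the authors, who used Bowtie2 against mm10 and then RSEM for gene levels (versions not given in the sources used here). The authors deposited for each sample an expected count per gene, which is not normalized and need not be whole, and an FPKM, scaled by transcript length and depth. Only genes of at least 0.01 FPKM are listed, and others were set to 0. Samples were grouped by their titles. Rounded expected counts were tested with edgeR 4.0.16 (glmQLFit, TMM) in 1 fit of all 8 samples without a block, restricted to 15287 genes (10 or more counts in 2 or more samples), with adjustment over all of them. The standard error is the fold change divided by the root of its F statistic. The script was tested on simulated counts. Replicates differed by more than sampling noise (chi-square per degree of freedom 1.885 to 3.712). The numbers shared by replicates in the labels did not pair them (correlations of deviations from −0.0659 to 0.0224). Alternatives were DESeq2 1.42.0, its size factors, no filter, only the groups compared, the block, leaving out each replicate, log2 FPKM in limma 3.58.1 with a pseudocount of 1 or 0.1, and other FPKM limits. Every collagen gene of at least 1 FPKM in both replicates of a condition was named. The gene lists include Kera, Gp6 and Snorc, which were not analysed here. The members and lists were chosen with earlier results of these data known. Gene coordinates are from GENCODE vM21, counted from 1, and sequences from RefSeq.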

Additional observations from a re-analysis of the deposited data

How the results depend on the processing

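Log2 fold changes of the 23 collagen genes were recomputed 1011 times under the alternatives. Direction and side of the threshold were kept in 973, the call was lost in 35 and gained in 3, and no direction reversed. Calls by edgeR with a replicate block were 18 higher and 0 lower in F against −F, 11 and 3 in F2i against F, 4 and 23 in NB2i against −F, and 1 and 29 in NB2i against F2i, so that the pairing by number, which the data did not show, changed only the last by 1. DESeq2 called 141 of all genes lower in F against −F, and limma on log2(FPKM + 0.1) called 148. That limma fit called 1 collagen gene higher and 15 lower in NB2i against −F. The limma fits required 0.5 FPKM in 2 samples, which 27 collagen genes met, and a pseudocount shrinks the fold changes of low genes by construction. On log2(FPKM + 1), limma called 11 collagen genes higher in F against −F (280 of all genes higher and 29 lower), 6 higher and 0 lower in F2i against F (355 and 376 of all genes), 1 higher and 6 lower in NB2i against −F (880 and 1102), and 17 lower in NB2i against F2i (391 higher and 703 lower of all genes). With a limit of 0.5 FPKM, 16 collagen genes were expressed without feeders in place of 10. Leaving out 1 replicate moved no count of calls by over 1.5 times. With 2 replicates a condition, small differences pass the test because replicates were close (biological coefficient of variation 3.254%), and genes under 1 FPKM rest on few reads.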
